A study of Mus musculus and Ochotona curzoniae and Rattus norvegicus with 18 samples.

Results

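The PAR bZIP factors DBP, TEF and HLF and the related repressor NFIL3 are 4 genes of the 14418 that could be joined by symbol between the deposited tables of Tibetan pika and mouse fibroblasts. They were chosen by name, as the set of transcription factors that act on one DNA element, the D-box, and all 4 were present in both tables. The series sequenced RNA from cultured fibroblasts of 4 species with 3 libraries each, and its stated aim included the expression of core clock genes in different species. The groups used here were Tibetan pika (Ochotona curzoniae) fibroblasts and mouse fibroblasts of strain C57BL/6J, with 3 libraries per species. Both were labelled as epidermis, were grown in DMEM with serum, and were lysed near confluency without a treatment being named for them; age, sex, passage and time of collection are not given in the sources used here. The rat (SD) and rabbit (White New Zealand) libraries carry identifiers that no table used here pairs with symbols, and they are not analysed here, nor are the 6 ChIP samples.

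DBP, TEF and HLF share a proline and acidic amino acid rich (PAR) region beside a basic leucine zipper, bind D-boxes as dimers, and activate transcription. NFIL3, also called E4BP4, has a related basic leucine zipper without the PAR region, binds the same element and represses it. In the circadian clock the CLOCK and ARNTL heterodimer drives Dbp, Tef and Hlf through E-boxes, while the REV-ERB repressors (NR1D1 and NR1D2) and the ROR activators compete on RORE elements of Nfil3. In rhythmic tissues such as liver the activators and NFIL3 therefore peak at opposite times of day, and the balance between them sets D-box output. A library of cells whose phase is unknown gives a level at an unknown point of that cycle.

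The libraries had between 7703576 and 8481030 reads in pika and between 3663102 and 5758950 reads in mouse, as worked out from the steps of the FPKM values. FPKM is the number of fragments per kilobase of gene model, scaled to the size of the library. Values below are rescaled FPKM, in which the joined genes of each library add up to 1000000, and tests are limma-trend on log2(value + 1) over 10348 genes. Fold changes are pika over mouse, and calls needed a log2 fold change of at least 1 in either direction together with an adjusted p below 0.05. Species, genome and gene annotation cannot be told apart in this design, and in bulk RNA fewer cells of a type and less RNA per cell cannot be told apart. Whether libraries of one species stem from separate animals or cultures is not labelled, so p-values cover the spread among libraries, possibly a technical one. Fibroblast markers summed to between 10947 and 11319 in pika and between 13941 and 14251 in mouse, and of 10 tested 2 were called higher and 4 lower. Of all 10348 genes tested, 28.7% were called higher and 23.5% lower, so calls in these short marker lists are given as a description only. COL1A1 and VIM, neither of them called, made up most of both sums. Among the called genes FAP was higher, at 41.7 in pika, against 1.23 in mouse. COL3A1 (22.9 in pika, against 954.8 in mouse), PDGFRA (3.47, against 65.1) and FBN1 (244.1, against 1506.7) were among those lower. Both species were labelled as epidermis. The summed keratinocyte list (7 genes joined) lay between 1.14 and 1.25 in pika and between 60.9 and 65.3 in mouse, and 2 of 2 tested members were called lower. DSP, a desmosome protein, made up most of the mouse sum, at 0.153 in pika, against 45.2 in mouse. KRT5, KRT14 and CDH1, which define keratinocytes, were at 0 in pika and had 1 read each in mouse, while KRT10 and IVL were at 0 in pika and had 14 and 12 reads in mouse. The endothelial list (5 joined) lay between 0.707 and 1.54 in pika and between 32.0 and 39.0 in mouse, with 1 of 1 tested called lower. That gene, TEK, made up most of the mouse sum, at 0.702 in pika, against 31.4 in mouse. PECAM1, CDH5, KDR and EMCN had 15, 14, 28 and 17 reads in mouse, and 10, 0, 0 and 1 in pika. The macrophage and leukocyte list (5 joined) lay between 14.1 and 15.2 in pika and between 34.2 and 43.0 in mouse, with CD68 and CSF1R called lower of 3 tested. CD68 rested on 18 reads in pika and 17 in mouse. It was inside the fold minimum without rescaling (-0.61) and without gene length (-0.52). CD14 was not called, and PTPRC, which defines leukocytes, was at 0 in pika and had 3 reads in mouse. The melanocyte list (4 joined) lay between 68.1 and 78.5 in pika and between 54.8 and 58.3 in mouse, with 1 of 2 tested called higher. That gene was PMEL, at 31.6 in pika, against 4.97 in mouse. MITF, at 40.2 in pika, against 50.5 in mouse, was not called. TYR and DCT had 12 and 8 reads in pika, and 0 and 4 in mouse. The part of these differences in the results below was not tested.

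Among the activators, HLF was the gene with the largest difference and was higher in pika, DBP was lower, and TEF did not reach the fold minimum. NFIL3, the repressor, was lower in pika. By limma-trend 1 of the 4 genes was called higher, 2 were called lower and 1 was not called. Of all 10348 genes tested, 52.2% were called, 28.7% higher and 23.5% lower, so 3 calls among 4 genes are not read as particular to this group. Without rescaling 84.5% of calls were higher, against 55.0% on the shared-gene scale, and the median log2 fold change of all genes was 1.29 without rescaling and 0.21 with it.

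HLF, named after its discovery in a leukaemia fusion protein, was at 11.1, 15.4 and 14.3 rescaled FPKM in the pika libraries, against 0.419, 0.867 and 1.16 in the mouse libraries. Every pika library was above every mouse library, and the mouse values lay near the detection limit, with 3, 4 and 7 reads. The means were 13.6 ± 2.24 in pika, against 0.815 ± 0.373 in mouse (SD, n = 3), a 16.7-fold difference whose exact 95% interval for counting error alone was 9.66 to 31.1. On the log2(value + 1) scale, which shrinks the change of a gene this low, the fold change was 3.01 (SE 0.20, limma-trend adjusted p = 4.3e-07), above that of 96.0% of tested genes. HLF kept its call under every scaling, with a log2 fold change of 2.65 without rescaling and 1.95 without gene length.

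NFIL3, known as a repressor of viral and cellular promoters, stood at 11.8, 10.4 and 14.1 in pika, against 52.9, 55.0 and 68.8 in mouse. The highest pika library was far below the lowest mouse library. Its means were 12.1 ± 1.85 for pika and 58.9 ± 8.65 for mouse (SD, n = 3). The log2 fold change was -2.19 (SE 0.13, limma-trend adjusted p = 2.3e-07), and 12.0% of tested genes had a lower one. It rested on 114 reads in pika, against 318 in mouse. NFIL3 was also lower without gene length (-2.32), and without rescaling it stayed lower but inside the fold minimum (-0.87).

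DBP, named for the D-site of the albumin promoter and the most strongly rhythmic of the activators in liver, was at 10.4, 6.22 and 7.41 in pika, against 20.2, 24.2 and 14.1 in mouse. The groups did not overlap, but the spread within each was wide, with a coefficient of variation of 27.1% in pika, against 26.2% in mouse. The pika values came from 23, 13 and 17 reads, for which counting error alone gives about 23.8%. The log2 fold change was -1.18 (SE 0.22, limma-trend adjusted p = 0.00074), not far past the fold minimum. Without rescaling the call ended, at 0.012. The deposited FPKM were nearly equal, at 3.71 ± 0.998 in pika, against 3.67 ± 0.946 in mouse (SD, n = 3).

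TEF, first found as thyrotroph embryonic factor in the pituitary, was at 27.8, 24.2 and 28.5 in pika, against 34.8, 33.5 and 32.1 in mouse. It was the steadiest of the 4 genes between libraries, and its groups did not overlap. Its means were 26.8 ± 2.32 for pika and 33.5 ± 1.38 for mouse (SD, n = 3), with a log2 fold change of -0.31 (SE 0.09, limma-trend adjusted p = 0.0085), inside the fold minimum. The sign turned without rescaling (0.87), and without gene length TEF was called lower (-2.36), the widest swing of the 4 genes. The gene models behind these values had 869 bases in pika, against 7865 in mouse, a 9.05-fold difference, against 5.93-fold for HLF, 5.12-fold for DBP and 2.44-fold for NFIL3. Set against the median of all genes, TEF and DBP lay below it and HLF above it under all scalings, with and without gene length, as did NFIL3 below it.

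**Figure D1:**
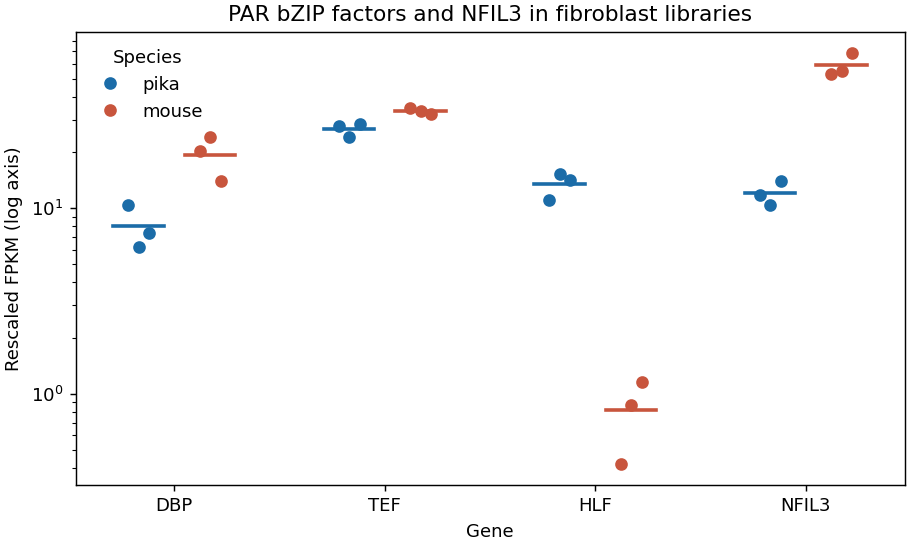
Rescaled FPKM of DBP, TEF, HLF and NFIL3 in each library, on a log axis; points are the 3 pika (blue) and 3 mouse (red) libraries of each gene and bars their means. HLF is higher in pika, at 13.6 against 0.815, NFIL3 and DBP are lower in pika, and TEF is close, at 26.8 against 33.5.

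**Figure D2:**
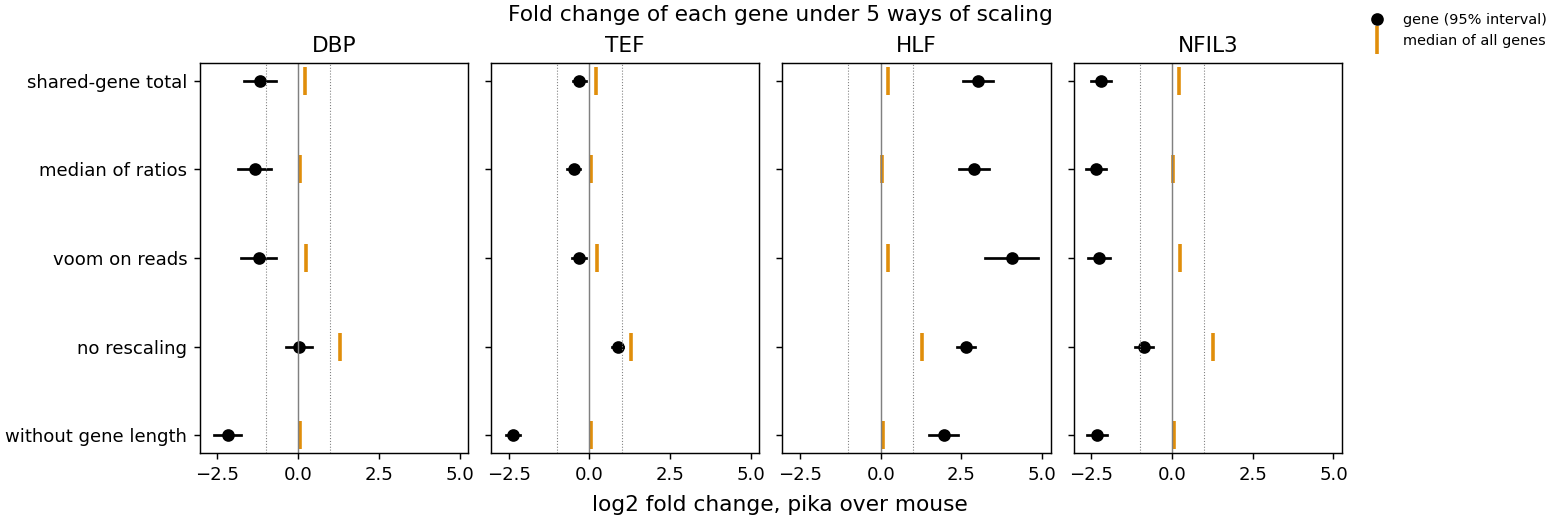
Log2 fold change of each gene, pika over mouse, under 5 ways of scaling; points carry 95% intervals, orange marks give the median of all genes under the same scaling, and dotted lines mark the fold minimum of 1. HLF stays above 1 throughout, and TEF moves between 0.87 without rescaling and -2.36 without gene length.

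The 4 genes stood in a different order in each species. Levels are per length here, so the order of the genes depends on the model lengths, which differ between the species. In pika TEF came first in all 3 libraries, followed by HLF, NFIL3 and DBP. HLF and NFIL3 overlapped in pika, as did NFIL3 and DBP, whose ranges of 10.4 to 14.1 and 6.22 to 10.4 just touched. In mouse the order was NFIL3, TEF, DBP and HLF, and no neighbours overlapped. The lead of NFIL3 over TEF in mouse holds only per length, since TEF had more reads than NFIL3 in every library of both species. By summed reads the order was TEF, HLF, NFIL3 and DBP in pika and TEF, NFIL3, DBP and HLF in mouse. The pika order in reads could change if its NFIL3 or DBP reads are too small by a whole factor. Among all joined genes NFIL3 stood at percentile 45.9 of the levels in pika, against 77.1 in mouse, and HLF at 47.2 in pika, against 22.3 in mouse. TEF and DBP moved less, with TEF at 57.3 in pika, against 64.0 in mouse, and DBP at 42.0 in pika, against 52.9 in mouse.

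The balance of activators and repressor was then taken as a ratio within each library, which does not depend on the scale of the library. The ratio of the summed FPKM of DBP, TEF and HLF to that of NFIL3 was 4.18, 4.39 and 3.56 in the pika libraries, against 1.05, 1.06 and 0.687 in the mouse libraries. All pika ratios lay above all mouse ratios, and activators and repressor were about level in mouse. The difference of the mean log2 ratios was 2.14 (SE 0.23), or 4.40-fold. The exact two-sided permutation test gave p = 0.10, the smallest value that 3 against 3 libraries allow, and 0.10 after adjustment over the 4 ratios. The pool of activators itself was similar, at 49.3, 45.8 and 50.1 rescaled FPKM in pika, against 55.5, 58.6 and 47.3 in mouse, and these ranges overlapped. That likeness depends on the rescaling: in deposited FPKM the pool was 22.4 ± 1.03 in pika, against 10.1 ± 1.03 in mouse (SD, n = 3), while NFIL3 was lower in pika on both scales, at 5.60 ± 0.851 FPKM in pika, against 11.1 ± 1.75 FPKM in mouse (SD, n = 3).

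Taken singly, each activator had a higher ratio to NFIL3 in pika, with no overlap between the species. For DBP the ratio was 0.884, 0.596 and 0.526 in pika, against 0.383, 0.440 and 0.204 in mouse, a 2.01-fold difference. For TEF it was 2.35, 2.32 and 2.02 in pika, against 0.659, 0.609 and 0.466 in mouse, or 3.89-fold. HLF differed most, at 0.938, 1.48 and 1.01 in pika, against 0.0079, 0.016 and 0.017 in mouse, or 87.4-fold. The exact two-sided permutation test gave p = 0.10 for each of these as well. Ratios do depend on gene length. In reads, DBP to NFIL3 was 0.458 in pika, against 0.480 in mouse, and TEF to NFIL3 was 2.32 in pika, against 2.22 in mouse (geometric means), and the libraries of the species overlapped for both. HLF to NFIL3 stayed apart in reads, at 1.52 in pika, against 0.042 in mouse, and so did the sum of the activators, at 4.33 in pika, against 2.75 in mouse. These reads were worked out from FPKM, and those of NFIL3 and DBP in pika may be too small by a whole factor. With the other reads unchanged, more NFIL3 reads would lower the TEF and summed ratios of pika. Whether the species overlap or stay apart in reads for DBP, TEF and the sum is therefore not settled.

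**Figure D3:**
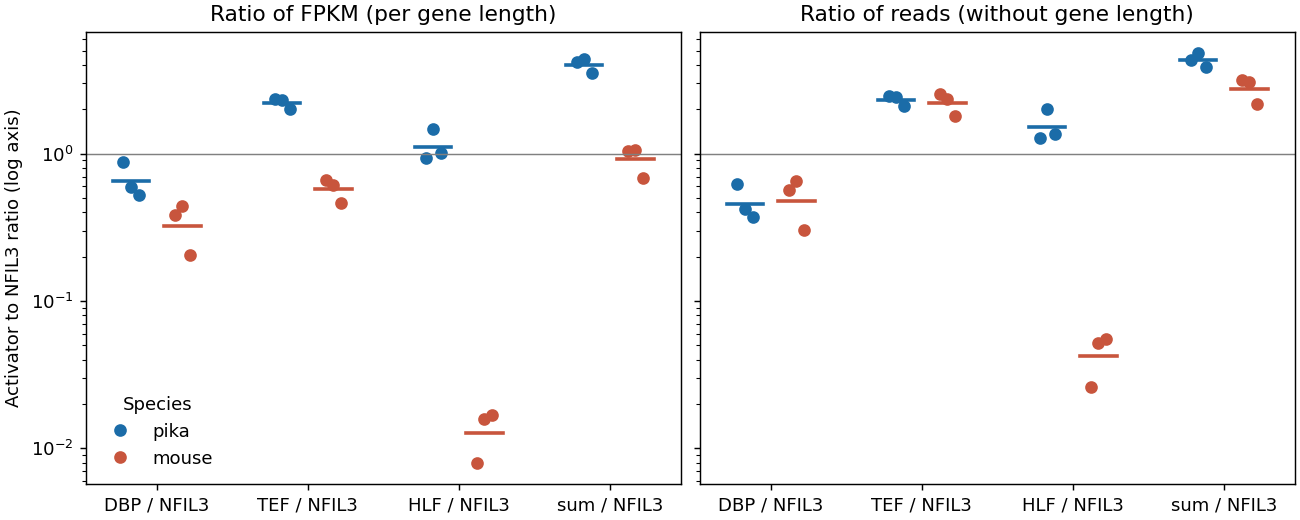
Ratio of each activator, and of their sum, to NFIL3 in each library on a log axis, from FPKM (left panel) and from reads without gene length (right panel); points are libraries, bars geometric means, and the grey line marks a ratio of 1. Pika (blue) lies above mouse (red) for all 4 ratios per length, and in reads only for HLF and the sum. The pika reads of NFIL3 and DBP may be too small by a whole factor, which would move the pika points of the right panel.

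The make-up of the activator pool differed as well. HLF supplied 22.5%, 33.6% and 28.4% of the summed activator FPKM in pika, against 0.754%, 1.48% and 2.45% in mouse. In mouse, then, nearly all of the pool was TEF and DBP. TEF was the main activator in both species, with 55.3 ± 2.21% in pika, against 62.6 ± 5.31% in mouse (SD, n = 3). DBP held 16.5 ± 4.08% in pika, against 35.8 ± 5.82% in mouse. The ranges did not overlap for any of the 3 genes, and the exact two-sided permutation test gave p = 0.10 for each, its smallest value. In reads, without gene length, HLF held 172 of 488 activator reads in pika, 35.2% (exact 95% interval 31.0 to 39.7), and 14 of 871 in mouse, 1.61% (0.881 to 2.68). These intervals cover counting error only. TEF held 53.9% of the activator reads in pika, against 80.8% in mouse, and DBP 10.9% in pika, against 17.6% in mouse. For DBP the libraries of the species overlapped in reads, with up to 14.3% in pika and down to 13.9% in mouse. The pika shares in reads rest on DBP reads that may be too small by a whole factor.

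**Figure D4:**
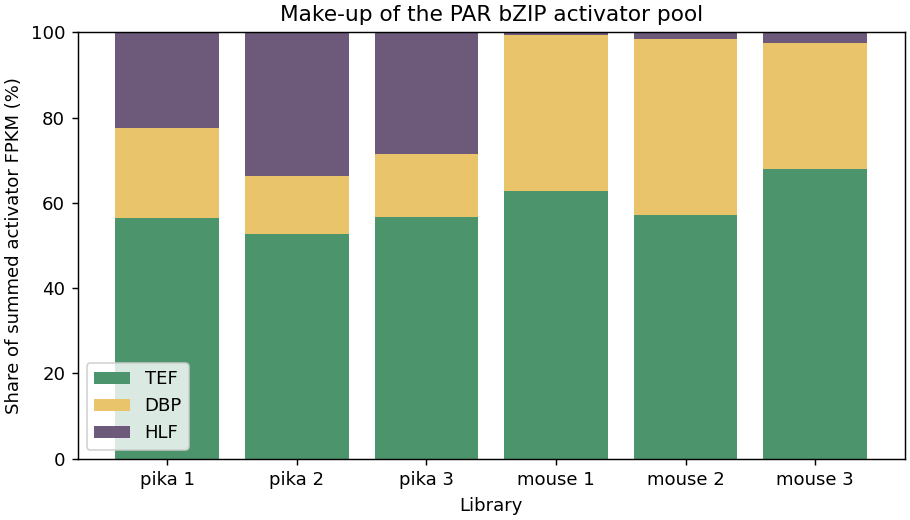
Share of TEF, DBP and HLF in the summed FPKM of the 3 activators, in percent, for each of the 3 pika and 3 mouse libraries. HLF takes between 22.5% and 33.6% of the pool in pika and at most 2.45% in mouse.

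The start regions of the mouse genes are shown for TEF, HLF and NFIL3, because they hold letters of the elements marked below. The E-box and the RORE core are elements of the upstream factors named above for TEF and NFIL3. The element marked for HLF is not one of those named above for it. The 250 bases before each annotated start were read from RefSeq windows (GRCm38.p6), which gave 5 windows for the 4 genes, and searched on both strands. Capitals mark the E-box CACGTG in the TEF windows, the cAMP response element TGACGTCA in the HLF window and the RORE core AGGTCA (here on the opposite strand, as TGACCT) in the NFIL3 window.
Tef, first start, chr15:81802423-81802672, plus strand: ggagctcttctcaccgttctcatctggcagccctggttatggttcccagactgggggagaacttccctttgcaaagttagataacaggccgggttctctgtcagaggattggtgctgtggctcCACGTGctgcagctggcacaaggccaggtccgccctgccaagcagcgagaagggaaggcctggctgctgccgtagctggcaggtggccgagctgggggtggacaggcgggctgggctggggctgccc
Tef, second start, chr15:81811164-81811413, plus strand: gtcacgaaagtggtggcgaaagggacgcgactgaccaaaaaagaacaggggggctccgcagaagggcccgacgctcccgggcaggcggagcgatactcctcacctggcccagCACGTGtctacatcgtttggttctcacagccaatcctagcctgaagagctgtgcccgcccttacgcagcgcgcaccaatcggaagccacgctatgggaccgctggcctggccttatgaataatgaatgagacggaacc
Hlf, chr11:90390918-90391167, minus strand: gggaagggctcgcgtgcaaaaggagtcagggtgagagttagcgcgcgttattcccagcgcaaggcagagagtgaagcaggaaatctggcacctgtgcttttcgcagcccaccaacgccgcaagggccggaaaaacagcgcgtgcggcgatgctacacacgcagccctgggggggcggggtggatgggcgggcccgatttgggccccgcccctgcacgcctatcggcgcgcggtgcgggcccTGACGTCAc
Nfil3, chr13:52981040-52981289, minus strand: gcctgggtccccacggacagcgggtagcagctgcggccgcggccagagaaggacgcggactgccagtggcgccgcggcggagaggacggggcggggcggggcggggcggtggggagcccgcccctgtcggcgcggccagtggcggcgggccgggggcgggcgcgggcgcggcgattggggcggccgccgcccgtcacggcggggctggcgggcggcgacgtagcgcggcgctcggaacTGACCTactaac

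The E-box was present in 6.02% of 32817 mouse windows of this length and in both Tef windows, starting 127 and 138 bases before the start. The cAMP response element, in 1.55% of windows, began 9 bases before the Hlf start, and the RORE core, in 14.0%, began 12 bases before the Nfil3 start. The Dbp window held none of these, and the Hlf window held no E-box. None of the 5 windows held the D-box letters TTATGTAA or TTACGTAA, which 0.929% of windows have. The hypoxia response core (ACGTG or GCGTG, overlapping the E-box), which HIF factors such as EPAS1 bind, was in the windows of Dbp, Tef and Hlf, and in 38.6% of all windows. A match of letters is a description of this window and not a binding site. In GRCm38.p6 Dbp lies on chromosome 7 from 45705100 to 45710203, Tef on chromosome 15 from 81802673 to 81826863, Hlf on chromosome 11 from 90336535 to 90390917 and Nfil3 on chromosome 13 from 52967209 to 52982878. The Nfil3 window and the second Tef window lie within these bounds, and the Dbp window lies partly within them, each before an internal start.

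Of the factors that act on Dbp, Tef and Hlf through E-boxes, 10 of 11 listed genes were joined and tested. The limma-trend fit called 3 of them higher and 2 lower, and 5 were not called, close to the 52.2% called among all genes, with a median log2 fold change of 0.52 against 0.21 over all genes. NPAS2, which can replace CLOCK as the partner of ARNTL, was at 53.2 ± 3.47 in pika, against 2.00 ± 1.08 in mouse (SD, n = 3). BHLHE41, a repressor that competes for E-boxes, was at 141.1 ± 12.1 in pika, against 1.85 ± 0.357 in mouse, and CRY1, which inhibits CLOCK and ARNTL, at 34.5 ± 1.80 in pika, against 11.5 ± 0.549 in mouse. The repressors PER2 (log2 fold change -2.70) and CRY2 (-1.44) were lower, PER2 with 7 reads in all pika libraries against 105 in mouse. PER1 (-0.26), BHLHE40 (0.31), ARNTL (0.79), CLOCK (-0.12) and CIART (0.73) were not called. CLOCK was near level only on this scale, at 1.05 without rescaling and -1.33 without gene length. Without gene length PER1 (0.31) and BHLHE40 (-0.55) changed sign, while ARNTL (0.38) and CIART (0.88) did not. CRY2, ARNTL, CLOCK and CIART were named after their values were seen. Without rescaling 7 were called higher and 1 lower, where 84.5% of all calls were higher.

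Of 5 regulators of NFIL3 through RORE elements, 3 were tested. Of these 2 were called lower and 1 was not called, where 52.2% of all tested genes were called and 23.5% were called lower. The repressors NR1D1, at 13.8 ± 1.25 in pika, against 99.3 ± 4.29 in mouse, and NR1D2, at 17.4 ± 1.16 in pika, against 54.7 ± 1.75 in mouse (SD, n = 3), were called lower, as NFIL3 was. RORA, an activator on the same element, was at 36.8 ± 3.63 in pika, against 37.2 ± 1.34 in mouse. Its log2 fold change of -0.02 had a limma-trend adjusted p of 0.83. RORB was too low to test, with 0 listed for all pika libraries and 126 reads in mouse. Without rescaling RORA was called higher (1.16), and NR1D2 lost its call (-0.32). Without gene length the log2 fold changes were -2.33 for NR1D1, -1.74 for NR1D2 and -2.13 for RORA, so that RORA was near level only per length.

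The clock genes whose own promoters are known to carry D-boxes are all in the lists above. Of 7 joined genes 6 were tested, with CRY1 called higher, PER2, NR1D1 and NR1D2 called lower, and PER1 and RORA not called, where 28.7% of all tested genes were called higher and 23.5% lower. Their median log2 fold change was -0.93, against 0.21 over all genes. Without rescaling 2 were called higher and 2 lower.

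Of 7 joined genes known in liver, brain or pituitary as targets of the PAR bZIP factors 5 were tested. Of these 1 was called higher and 1 lower, against 52.2% called in either direction among all genes, with a median log2 fold change of 0.18. PPARA, a nuclear receptor of fatty acid breakdown, was at 7.75 ± 0.874 in pika, against 1.44 ± 0.542 in mouse (SD, n = 3), and was called higher. NR1I3, the xenobiotic receptor CAR, was at 0.804 ± 0.393 in pika, against 18.3 ± 1.73 in mouse, with 6 reads in pika, and was called lower. PDXK, which makes the active form of vitamin B6, was at 36.1 ± 2.54 in pika, against 26.3 ± 2.72 in mouse. POR, which passes electrons to cytochromes P450, was at 87.0 ± 4.42 in pika, against 76.6 ± 4.64 in mouse, and ALAS1, which starts haem synthesis, at 33.6 ± 0.626 in pika, against 46.9 ± 1.64 in mouse. These 3 were not called, but without gene length the sign of PDXK turned, to -2.03. ALB, from which DBP takes its name, was at 0 in all 6 libraries, and TSHB, the pituitary target of TEF, was at 0 in pika and had 3 reads in mouse. Without rescaling 3 of the 5 were called higher and 1 lower.

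The C/EBP factors, basic leucine zipper proteins whose sites overlap those of the PAR factors, had 6 joined and 5 tested members. Of these 1 was called higher and 3 lower, against 28.7% higher and 23.5% lower among all genes, with a median log2 fold change of -1.01. CEBPG was at 117.3 ± 18.4 in pika, against 33.8 ± 4.72 in mouse (SD, n = 3) and was called higher, although without gene length its log2 fold change was 0.11. CEBPA, which drives fat and liver cell differentiation, had a listed value of 0 in each library of pika, against 36.3 ± 1.88 in mouse, and was called lower. CEBPB, induced by inflammation, was at 116.7 ± 9.96 in pika, against 302.9 ± 47.2 in mouse, and the stress factor DDIT3 at 107.4 ± 12.7 in pika, against 217.1 ± 17.5 in mouse. Without rescaling CEBPB (-0.07) and DDIT3 (0.27) lost their calls. Without gene length DDIT3 was inside the fold minimum (-0.27), and CEBPB was at -1.04. CEBPD was at 106.8 ± 2.58 in pika, against 60.1 ± 4.49 in mouse and was not called, and it was called higher without rescaling (2.03). Its sign turned without gene length, to -0.66.

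**Figure D5:**
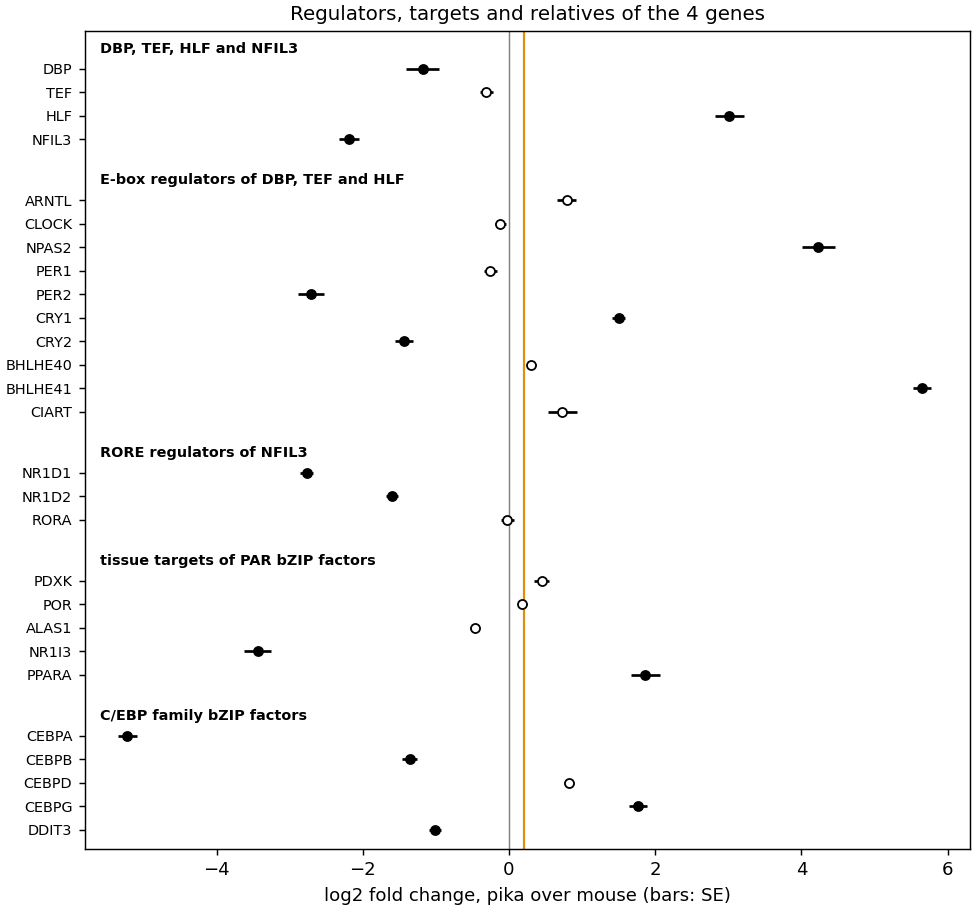
Log2 fold change, pika over mouse, of the 4 genes and of the tested members of 4 gene lists; bars are SE, filled points were called, open points were not, and the orange line is the median of all tested genes (0.21). Each list holds genes on both sides of 0, except the RORE regulators, whose 3 tested members lie between -2.77 and -0.02. The position of CEBPA, listed at 0 in pika, depends on the pseudocount.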

How the data were processed

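RNA-seq of pika and mouse fibroblasts was used, with 3 libraries per species. Each table held 1 FPKM value per gene, as deposited by the authors. Tools named, in no order, by the submitters' processing notes are CASAVA 1.9, STAR 2.6.1a, edgeR 3.28.1 and featureCounts, and the only build is GRCm38. Annotation versions were not given in the sources used here.

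Pika rows were named by symbol, and 49326 of 49585 mouse identifiers were given a symbol from a table of mouse genes. Joining on symbols that were unique in both species left 14418 genes, which held 87.1% of the pika FPKM and 37.0% to 38.3% of the mouse FPKM. Libraries were then rescaled so that these genes sum to 1000000. Genes averaging at least 1 deposited FPKM in either species entered a limma-trend fit of log2(value + 1), with Benjamini-Hochberg adjustment over 10348 genes. It was run two-sided in limma 3.58.1 under R 4.3.3. The fit was also run on simulated data, in which both groups were drawn from mouse levels and mouse gene lengths. That simulation could not cover differences in gene length or gene table between the species.

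Whole reads, model lengths and totals were worked out from the FPKM steps, with a tolerance of 0.002 reads. The reads found add up to between 95.7% and 96.3% of each total. Reads and length of a gene can be too small by a shared whole factor, for which the short pika models of DBP (585 bases) and NFIL3 (832 bases) are candidates. That would change the printed read counts, counting errors and exact intervals and the values without gene length, but not FPKM. Replicates differed by more than counting error, with a mean chi-square per gene of 1.33 to 1.50 between pika and 1.43 to 2.74 between mouse libraries.

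The members, lists and tests were chosen with earlier results of these data known. Any gene could be named from lists of up to 10. From longer lists up to 4 called genes with the largest change and up to 2 others were to be named, and 4 further E-box genes were named after their values were seen. For each of the 4 genes up to 3 of the nearest genes were named. Some genes that these rules would name are not reported here. Intervals are exact (Clopper-Pearson) and cover counting error only. Python 3.11.15, numpy 2.4.6, pandas 2.3.3, scipy 1.17.1 and matplotlib 3.10.9 were used.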

Additional observations from a re-analysis of the deposited data

How the results depend on the processing

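Of 59 alternative values computed for the 4 genes, 55 kept their direction and their side of the threshold. The alternatives were a pseudocount of 0.1, no filter on low values and a filter at 5, median-of-ratios scaling, no rescaling, no gene length, limma without trend, voom on reads, a replicate block and each library left out. Without rescaling DBP (0.012) and TEF (0.87) changed sign and NFIL3 lost its call (-0.87). There the median of all genes was 1.29, so that the 3 values still lay below it. Without gene length TEF passed the fold minimum (-2.36) and the DBP to NFIL3 ratio changed sign (-0.067), while the log2 differences of TEF to NFIL3 (0.066, against 1.96 per length) and of the summed ratio (0.65, against 2.14) shrank. With 3 libraries per species the ratios could not pass a p of 0.05 under any setting. The cause was not tested. DBP was too low to be tested with the filter at 5. With each library left out in turn the log2 fold changes ran from -1.39 to -1.01 for DBP, -0.36 to -0.24 for TEF, 2.85 to 3.15 for HLF and -2.30 to -2.08 for NFIL3, and the summed ratio from 1.93 to 2.24. Same-numbered pika and mouse libraries did not deviate together (correlations -0.0091, 0.048 and 0.0092), and not every library correlated best with its own number. The replicate block gave 5405 called genes in place of 5403 and changed no call among the 4 genes. Without rescaling 7135 genes were called, of which 4062 were among the 5403, without gene length 5370, of which 3867 were, and with the filter at 5 4169, all among them. Depth limits HLF in mouse, with 14 reads, and DBP in pika, with 53.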

Other observations

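The genes nearest to each of the 4 over the 6 libraries, by Euclidean distance of log2(rescaled FPKM + 1), are given as a description. How many genes share such a pattern was not counted. Nearest to TEF were ATRN (distance 0.19), CBLB (0.20) and STK10 (0.22), where the median gene lay at 3.83. Nearest to NFIL3 were SDHAF4 (0.38), SNAP29 (0.39) and FYCO1 (0.49). Nearest to DBP were ZC3H3, AP3M2 and ULK3, all at 0.48. Among those nearest to HLF were COL4A3 (0.56) and PALB2 (0.61). The median gene lay at 4.98 from NFIL3, 5.23 from DBP and 8.22 from HLF.

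The spread between libraries was close to counting error for TEF and HLF. The coefficient of variation of TEF was 8.66% in pika and 4.11% in mouse, where counting alone gives about 10.7% and 6.64%. That of HLF was 16.5% in pika and 45.8% in mouse, where counting alone gives about 13.2% and 47.1%. For NFIL3 it was 15.3% in pika and 14.7% in mouse, with 16.2% and 9.88% for counting alone.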
